A study of Drosophila melanogaster with 16 samples.

Results

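The cuticle protein genes of Drosophila melanogaster were followed across adult foregut tissues. Members were chosen by symbol alone: every protein-coding gene of the Ensembl BDGP6 annotation (release 115) whose symbol begins with Cpr followed by a digit, Twdl, Ccp84A, Lcp or Pcp. The rule gave 118 of the 13619 protein-coding genes with deposited values, and all 118 annotated members were in the deposited tables. They comprised 70 Cpr, 25 Twdl, 15 Lcp, 7 Ccp84A and 1 Pcp gene.

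Bulk RNA-seq libraries came from 3 samples of the crop, 3 of the salivary gland (SG), 5 of the proventriculus from flies given bacteria (PV LpWF) and 5 of the proventriculus from axenic flies (PV axenic). All were dissected from adult mated Canton-S females, a wild-type stock, raised without microbes. LpWF is a strain of the gut commensal Lactiplantibacillus plantarum that was given to the adults of every group except PV axenic. The labels gave no age. Each library pooled tissue from many flies; crop pieces included the crop duct, whereas PV pieces carried as little of it as the dissection allowed. Crop and PV libraries were made from total RNA depleted of ribosomal RNA with a kit designed for human, mouse and rat, and SG libraries from poly(A) RNA, so that tissue and preparation cannot be told apart for SG.

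The foregut of insects is an ectodermal tube, and its cells secrete a cuticle on the luminal side, called the intima. Cuticle is a composite of chitin fibres and structural proteins. Most Cpr, Lcp, Ccp84A and Pcp proteins carry the Rebers-Riddiford domain, which binds chitin, and the Tweedle (Twdl) proteins form a separate cuticle protein family. The crop is a cuticle-lined storage sac of the foregut, and the PV is the valve where ectodermal foregut, including esophagus, meets endodermal midgut. Many members of these families are best known from the body wall of embryos, larvae and pupae.

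Depth ran between 18.2 and 45.5 (in units of 1000000 reads on annotated genes) per library. Levels are given as coding TPM, that is length-normalized transcript abundance (TPM) rescaled so that the protein-coding genes of each library sum to 1000000. The 10 highest genes took 13.3% ± 1.87 of coding TPM in crop, 88.6% ± 0.802 in SG, 42.0% ± 5.13 in PV LpWF and 45.1% ± 4.69 in PV axenic (SD, n = 3, 3, 5 and 5). Ribosomal RNA took 15.3% to 22.1% of the reads in PV replicates 1 to 3 and 27.9% to 43.4% in PV replicates 4 and 5 of both groups. In bulk tissue, fewer cells of a type and less RNA per cell cannot be told apart.

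Few members were active in any adult foregut tissue. At a group mean of 1 coding TPM or more, 9 of the 118 members were counted in crop, 4 in SG, 8 in PV LpWF and 7 in PV axenic, and 13 reached that level in at least 1 group. The same level was reached by 61.7% of all protein-coding genes in crop, 33.6% in SG, 59.2% in PV LpWF and 57.9% in PV axenic, against 7.63%, 3.39%, 6.78% and 5.93% of the members in the same order. Single libraries held between 10 and 13 such members in crop, 3 and 4 in SG, 7 and 10 in PV LpWF, and 7 and 8 in PV axenic. At 100 coding TPM or more there were 4 members in crop, 1 in each PV group and 0 in SG.

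Of the 118 members, 42 had no read in any of the 16 libraries, and 24 more had 1 to 3 reads in all. Across these 42 silent genes, 3 reads over all libraries of a group would correspond to 0.0584 to 0.464 coding TPM in crop, 0.00737 to 0.0585 in SG, 0.0185 to 0.147 in PV LpWF and 0.0190 to 0.151 in PV axenic. These limits cover counting error only. One coding TPM was worth a median of 9.65 reads in crop, 74.1 in SG, 17.5 in PV LpWF and 17.2 in PV axenic, so that members near the threshold rested on few reads in crop.

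The 13 members that reached 1 coding TPM were 12 Cpr genes and Lcp1. The Cpr genes were Cpr67B, Cpr49Ae, Cpr51A, Cpr57A, Cpr78E, Cpr66D, Cpr65Au, Cpr49Af, Cpr50Ca, Cpr73D, Cpr47Eg and Cpr67Fb. None of the 25 Twdl, 7 Ccp84A or 1 Pcp gene reached it as a group mean. The highest group mean was 0.461 coding TPM for Tweedle genes (Twdlbeta), 0.147 for Ccp84A genes (Ccp84Ag) and 0.412 for Pcp, which codes for a pupal cuticle protein. No read was seen for 14 of the 25 Tweedle genes and 4 of the 7 Ccp84A genes.

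**Figure D1:**
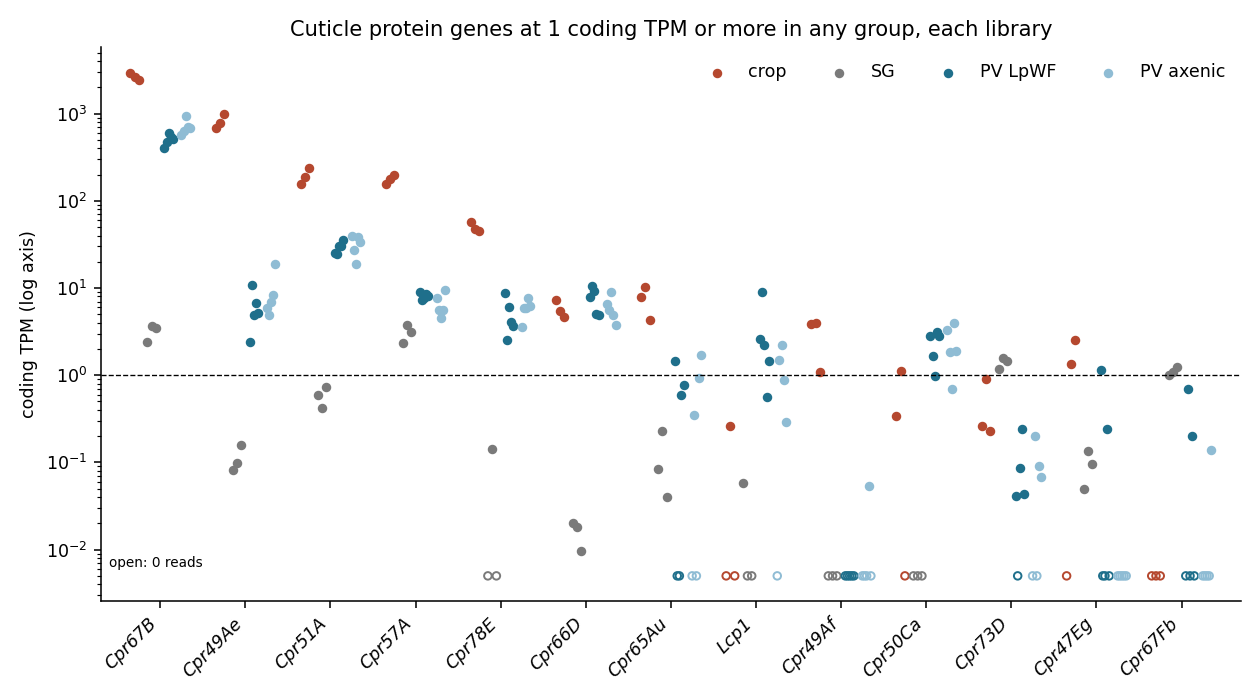
Level of the 13 members that reached a group mean of 1 coding TPM in at least 1 group (log axis, 1 point per library, crop, SG, PV LpWF and PV axenic side by side within each gene, open circles for libraries with 0 reads, dashed line at 1 coding TPM). Crop libraries are highest for Cpr67B, Cpr49Ae, Cpr51A, Cpr57A, Cpr78E and Cpr65Au, most PV libraries lie above crop for Cpr50Ca, and SG libraries lie above all others for Cpr73D and Cpr67Fb.

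Cpr67B was the most abundant member in every group. This gene (FBgn0035985, BDGP6, 3L:9404797-9406174, plus strand, 260 codons) measured 2959, 2605 and 2419 coding TPM in crop. It measured 2.43, 3.62 and 3.50 coding TPM in SG. In the PV it measured 403, 472, 601, 546 and 512 coding TPM with LpWF, and 574, 631, 928, 708 and 693 coding TPM without bacteria. The crop libraries stood above all others and the SG libraries below all others. Among the protein-coding genes its mean ranked 70 in crop, 2269 in SG, 187 in PV LpWF and 157 in PV axenic.

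Cpr49Ae (FBgn0033728, 2R:12402216-12405108, plus strand, 134 codons) was the second most abundant member in crop, at 678, 778 and 985 coding TPM. In SG it was at 0.0825, 0.0985 and 0.157 coding TPM. It stood at 2.43, 10.9, 4.92, 6.67 and 5.18 coding TPM in PV LpWF, and at 5.93, 4.95, 6.88, 8.34 and 18.9 in PV axenic. Its crop mean ranked 208 among protein-coding genes, against 5957 in PV LpWF. Within a library Cpr49Ae amounted to 22.9% to 40.7% of the Cpr67B level in crop and 0.604% to 2.32% in PV LpWF, a ratio that no scaling between libraries changes.

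Cpr51A (FBgn0033942, 2R:14512559-14515211, minus strand, 144 codons) measured 157, 188 and 240 coding TPM in crop and 0.599, 0.422 and 0.735 in SG. It measured 25.5, 24.7, 30.1, 30.0 and 35.1 coding TPM in PV LpWF, and 39.3, 27.1, 18.7, 38.4 and 33.8 in PV axenic. Cpr51A was thus the second most abundant member of the PV, and the PV groups overlapped. Relative to Cpr67B it held 5.31% to 9.93% in crop and 5.01% to 6.85% in PV LpWF, ranges that overlapped. The gene overlaps CG30197 on the opposite strand, which measured 972 coding TPM on average in crop and 2116 in PV LpWF, opposite in order to Cpr51A. The study lists Cpr51A in the cuticle-secreting ectoderm of the PV. It also lists Cpr51A among chitin-binding genes of PV5.5 and PV6, cells of the endodermal outer wall. These cells were not separated here.

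Cpr57A (FBgn0034517, 2R:20548368-20550117, minus strand, 184 codons) measured 156, 179 and 200 coding TPM in crop. It measured 2.35, 3.81 and 3.11 in SG. The PV values were 8.94, 7.31, 7.72, 8.46 and 8.07 with LpWF, and 7.69, 5.55, 4.59, 5.65 and 9.46 without bacteria. The crop libraries were well separated from the rest, and in SG the gene stood at 88.8% to 105% of the Cpr67B level, against 5.29% to 8.26% in crop. Of its annotated transcripts, FBtr0086263 carried 89.1% of the estimated crop reads, 97.7% of those in SG, 92.5% in PV LpWF and 91.8% in PV axenic. Cpr57A overlaps Obp57d on the same strand, and Obp57d was not analysed here.

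Cpr78E (FBgn0037114, 3L:21666452-21666980, minus strand, 137 codons) was the lowest of the 5 crop members above 10 coding TPM. It measured 57.9, 47.9 and 45.4 coding TPM in crop, 0, 0.144 and 0 in SG, 8.68, 2.54, 6.05, 4.07 and 3.71 in PV LpWF, and 3.55, 5.96, 5.83, 7.70 and 6.18 in PV axenic. The PV groups overlapped. Cpr66D (FBgn0052029, 3L:8640439-8643584, plus strand, 270 codons) was instead at similar coding TPM in both foregut tissues. It measured 7.25, 5.48 and 4.60 in crop, 0.0201, 0.0180 and 0.00959 in SG, 7.92, 10.6, 9.30, 5.08 and 4.94 in PV LpWF, and 6.62, 5.66, 9.07, 4.85 and 3.72 in PV axenic. Relative to Cpr67B, however, Cpr66D held 0.190% to 0.245% in crop and 0.931% to 2.26% in PV LpWF, without overlap.

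The summed level of the 118 members was 4038, 3831 and 3907 coding TPM in crop, or 0.393% ± 0.0105 of all coding TPM (SD, n = 3). It was 8.31, 11.9 and 10.8 in SG. In the PV it was 466, 541, 663, 609 and 576 with LpWF, and 643, 686, 981, 780 and 771 without bacteria. Cpr67B alone made up 67.7% ± 5.69 of the sum in crop, 30.8% ± 1.69 in SG, 88.5% ± 1.71 in PV LpWF and 91.3% ± 2.14 in PV axenic (SD, n = 3, 3, 5 and 5). Cpr49Ae contributed 20.8% ± 4.22 in crop and about 1% in each of the others, with means of 1.10% in SG, 1.06% in PV LpWF and 1.17% in PV axenic. Cpr51A held a similar share in all 4 groups, with means of 4.99% in crop, 5.87% in SG, 5.12% in PV LpWF and 4.25% in PV axenic. The tissues thus differed in the make-up of the pool as well as in its size. Without Cpr67B, the remaining 117 members summed to a mean of 1264 coding TPM in crop, 7.13 in SG, 64.6 in PV LpWF and 65.4 in PV axenic.

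**Figure D2:**
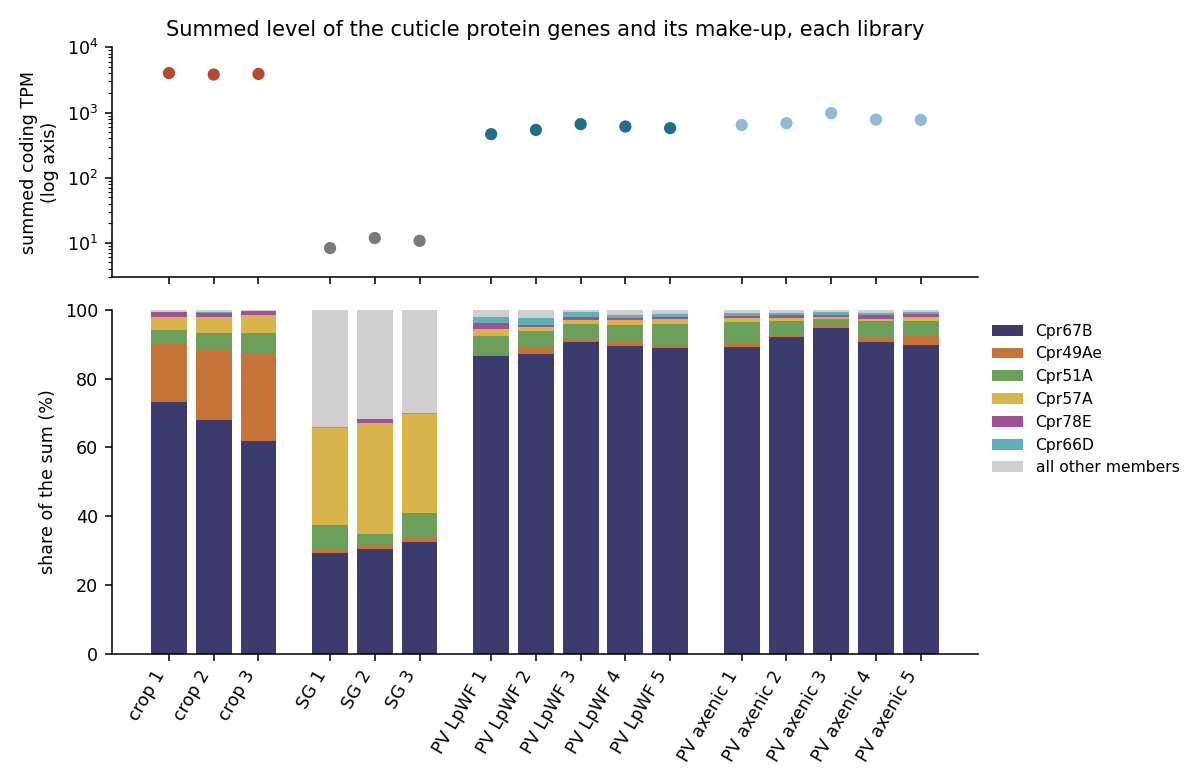
Upper panel, summed coding TPM of the 118 members in each library (log axis); lower panel, share of that sum held by 6 named members and by the other 112 (percent, 1 bar per library). Cpr67B holds 61.9% to 73.3% of the sum in crop and 86.4% to 94.7% in the PV, the Cpr49Ae share is visible mainly in crop, and Cpr57A is close to Cpr67B only in SG.

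Cpr65Au, Cpr49Af and Cpr47Eg reached 1 coding TPM in crop on few reads. Cpr65Au (FBgn0042119, 3L:6131242-6132109, minus strand) had 28, 27 and 19 reads in crop, for 7.91, 10.2 and 4.29 coding TPM, against 9, 0, 0, 4 and 3 reads in PV LpWF. Cpr49Af (FBgn0033729, 2R:12405932-12407045, plus strand) had 19, 28 and 8 reads in crop, for 3.85, 3.98 and 1.08 coding TPM, and none in any SG or PV LpWF library. A single Cpr49Af read was found in PV axenic replicate 4. Cpr47Eg had 0, 3 and 7 reads in crop, so its crop mean of 1.30 coding TPM rested on 10 reads.

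Lcp1 and Cpr50Ca were found mainly in the PV. Lcp1 (FBgn0002531, 2R:8430115-8431243, minus strand), named as a larval cuticle protein gene, had 0, 1 and 0 reads in crop and 2, 0 and 0 in SG, against 23, 95, 25, 4 and 8 in PV LpWF and 0, 9, 22, 6 and 3 in PV axenic. Its mean level of 3.18 ± 3.38 coding TPM in PV LpWF (SD, n = 5) was carried by replicate 2 at 9.07, with the others between 0.564 and 2.59. Cpr50Ca (FBgn0033867, 2R:13769915-13787802, plus strand, 815 codons) measured 0.343, 1.11 and 0 coding TPM in crop and 0 in all SG libraries, against 2.82, 1.65, 0.985, 3.15 and 2.84 in PV LpWF and 3.27, 1.84, 0.688, 3.99 and 1.87 in PV axenic. Its highest crop library lay above its lowest PV LpWF library. It overlaps lncRNA:CR43810 on the same strand, so assignment of its reads is less certain.

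The salivary gland libraries carried the lowest sums. Their salivary gland markers summed to 5776 to 8003 coding TPM, against 60.5 to 84.2 in crop and 60.2 to 162 in PV LpWF. The SG level of 6 members (Cpr67B, Cpr49Ae, Cpr51A, Cpr57A, Cpr78E and Cpr66D) lay below every crop and PV library, as did 60.3% of protein-coding genes. Cpr73D and Cpr67Fb showed the opposite order. Cpr73D (FBgn0036680, 3L:16939100-16957689, minus strand, 597 codons) measured 1.18, 1.56 and 1.44 coding TPM in SG from 329, 492 and 418 reads, against 0.260, 0.895 and 0.231 in crop and 0.0408, 0, 0.0868, 0.239 and 0.0435 in PV LpWF. Cpr67Fb (FBgn0036110, 3L:10894173-10894693, plus strand, 122 codons) measured 0.995, 1.08 and 1.23 in SG from 24, 29 and 31 reads, against 0 reads in all crop libraries and 6 reads over the 5 PV LpWF libraries. These were 2 of 118 members with every SG library above every crop and PV library, an order found for 0.815% of protein-coding genes. Because tissue and RNA preparation were confounded, no test was made. Without the 10 highest genes of each library, Cpr73D averaged 12.2 in SG, 0.539 in crop and 0.140 in PV LpWF, and Cpr67Fb 9.71 in SG, 0 in crop and 0.290 in PV LpWF, so the order was kept on that scale. For Cpr57A that scale changed the order, with means of 27.0 in SG, 206 in crop, 14.1 in PV LpWF and 12.2 in PV axenic. Its SG mean thus lay above the PV means there. Cpr73D overlaps Ogdh and Obp73a on the opposite strand.

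Other members remained below 1 coding TPM as group means. Cpr49Ac had 45, 6 and 5 reads in crop and 0 to 1 in PV LpWF and SG libraries, for a crop mean of 0.906 ± 1.02 coding TPM (SD, n = 3). Cpr64Ad ranged between 0.0807 and 1.51 coding TPM in crop and between 0.0928 and 0.756 in PV LpWF. It overlaps CG43367 on the same strand, so assignment of its reads is less certain. CG43367 averaged 21.0 coding TPM in crop and 17.7 in PV LpWF. Twdlbeta was seen almost entirely in PV LpWF replicate 4, with 24 of its 34 reads. Cpr60D, Cpr49Aa, Cpr49Ag and Pcp had 7 to 10 reads each over the 3 crop libraries.

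Cuticle protein genes lie in tandem arrays, and the expressed members were not the arrays as wholes. With members joined when no more than 50000 bases apart, 88 of the 118 lay in 16 clusters of at least 3, of which 6 members reached 1 coding TPM in any group. Of the 30 members alone or in pairs, 7 did, including Cpr67B, Cpr51A, Cpr57A, Cpr78E and Cpr66D. Coding length differed too, with a median of 137 codons in the 13 members at 1 coding TPM or more and 198 codons in the other 105. Family differed with length: the Tweedle genes, with 0 members at that level, had a median of 274 codons and the Cpr genes 179.5. In crop 1 coding TPM was worth 2.74 reads for Cpr47Eg and 38.9 for Cpr73D, so the threshold took fewer reads in shorter genes. These counts are a description without a test.

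The Cpr49A array held 8 genes, and only Cpr49Ae and Cpr49Af reached 1 coding TPM there. Cpr49Af starts 823 bases beyond the end of Cpr49Ae on the same strand, yet its mean in crop was 2.97 coding TPM, against 814 for Cpr49Ae. Its crop reads amounted to 0.156% of those of Cpr49Ae, and whether they belong to transcripts of Cpr49Af was not tested. Cpr49Ad had no read in any library. In the Lcp65A/Cpr65A array of 17 genes only Cpr65Au passed 1 coding TPM, the next highest group mean was 0.402, and 7 genes had no read. The array of 12 Tweedle genes on 3R had 10 members without a read and a highest group mean of 0.0747 coding TPM, in TwdlO.

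**Figure D3:**
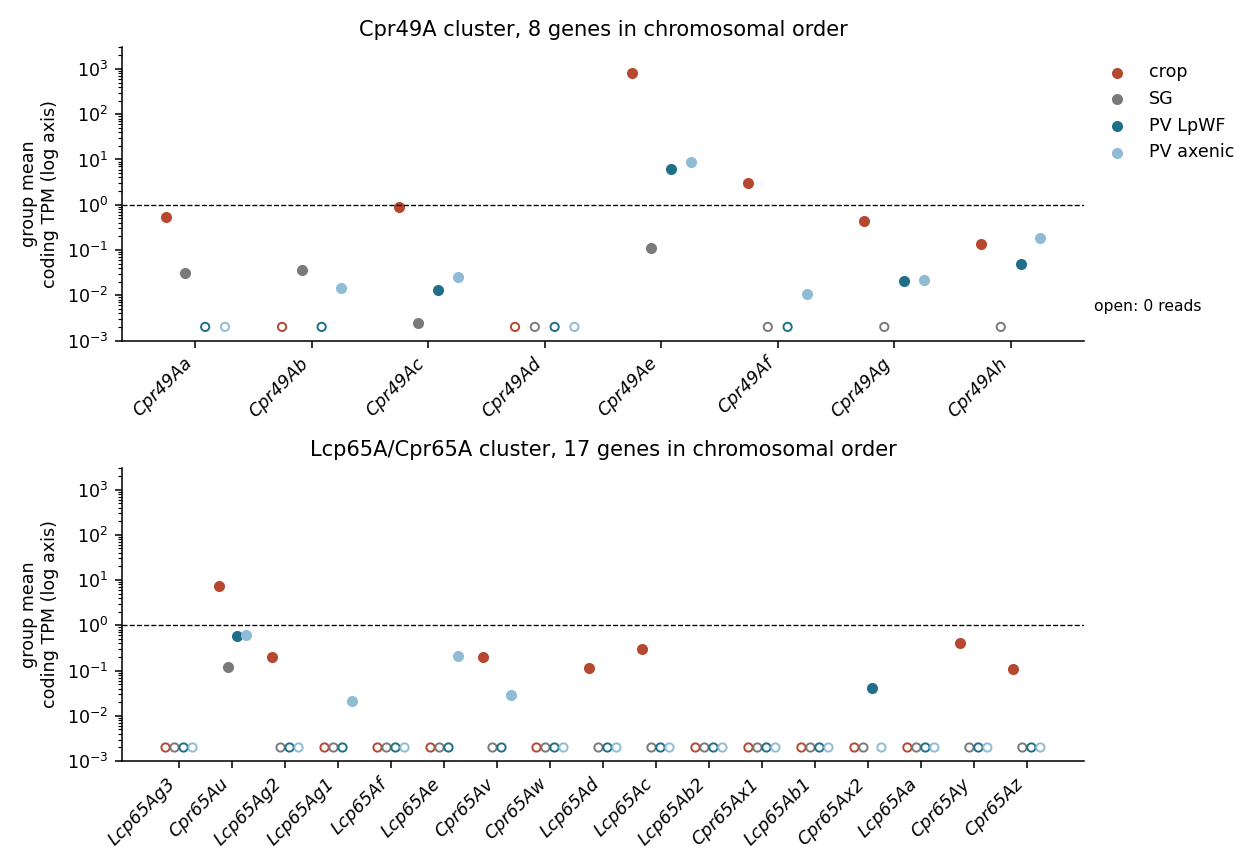
Group mean coding TPM (log axis) of the 8 genes of the Cpr49A array and the 17 genes of the Lcp65A/Cpr65A array in chromosomal order, with crop, SG, PV LpWF and PV axenic side by side in each gene and open circles for groups with 0 reads. Cpr49Ae stands at 814 coding TPM in crop while its neighbours stay below 3, and Cpr65Au is the 1 gene of its array above the dashed line at 1.

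Crop and PV LpWF, which shared bacterial treatment and library preparation, were compared in edgeR (quasi-likelihood F test), and p-values were adjusted by the Benjamini-Hochberg method over the 9713 genes tested. Of the 118 members, 11 passed the filter on low counts and 107 did not. Among the 11, 7 were higher in crop, 3 were lower and 1 (Cpr73D) was not called at an adjusted p under 0.05. Over all tested genes 26.1% were higher and 25.5% lower (51.6% in either direction, and 57.7% at an unadjusted p under 0.05), so that calls as such were common in this contrast. The median log2 fold change was 1.75 over the 11 members and 0.01 over all tested genes. The filter asked for 3 libraries over a count limit. Of the 11, 2 had such libraries in crop alone and 1 in PV LpWF alone, and these (Cpr49Af and Cpr65Au, and Lcp1) had to differ. Cpr73D reached that number in crop but not in PV LpWF. Cpr50Ca, with 19, 46 and 0 reads in crop, reached it in PV LpWF but not in crop. Cpr73D and Cpr50Ca thus also entered through the group where they were higher.

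The comparison depended on how libraries were scaled. TMM normalization centred the genes at a median log2 fold change of 0.01. Scaling by coding TPM totals placed that median at 0.99, with 6825 genes called higher and 956 lower (87.7% of calls higher, against 50.6% under TMM), and log2 fold changes of the members moved up by about the same amount. Values under both scalings are therefore given, with TMM first.

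Cpr49Ae had the largest well-measured difference, with a log2 fold change of 6.10 ± 0.45 (SE, edgeR adjusted p = 2.19e-05) and 7.07 under coding TPM scaling. Cpr57A rose by 3.51 ± 0.12 (adjusted p = 5.27e-08), or 4.50 under coding TPM scaling. Its standard error was the smallest of the 11 members. Cpr78E rose by 2.34 ± 0.36 (adjusted p = 0.000479) and Cpr51A by 1.75 ± 0.19 (adjusted p = 4.41e-05), against 3.32 and 2.75 under coding TPM scaling. Cpr67B rose least among the abundant members, by 1.41 ± 0.13 (adjusted p = 2.13e-05), or 2.39 under coding TPM scaling. Crop and PV LpWF libraries did not overlap in coding TPM for any of these 5 genes, nor for 54.7% of all protein-coding genes (either direction). In each of the 8 fits that left out 1 library these 5 members kept their direction and call.

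The other higher members were less certain, and Cpr49Af and Cpr65Au had passed the filter through crop alone. With TMM-scaled library sizes, Cpr49Af was 28.6-fold or more higher in crop. It had 55 reads in crop against 0 in PV LpWF, with a floor of 3 reads over the PV LpWF group. The bound was 19.3-fold without crop replicate 2. Its edgeR adjusted p of 0.00566 (0.000840 under coding TPM scaling, log2 fold change 7.91) is given as a description. Cpr65Au had a log2 fold change of 2.74 ± 0.96 (adjusted p = 0.0386), or 3.72 (adjusted p = 0.00388) under coding TPM scaling. With TMM-scaled library sizes, its pooled reads gave a ratio of 7.22 with a 95% counting interval of 4.17 to 13.3. That ratio was 13.2 without PV LpWF replicate 1. The ratio of mean coding TPM over all libraries was 13.1. The Cpr65Au call was lost when any 1 of the crop libraries or PV LpWF replicate 2 or 5 was left out, with adjusted p up to 0.104. Cpr73D had a log2 fold change of 1.45 ± 0.97 (adjusted p = 0.241), and 2.40 with an adjusted p of 0.0376 under coding TPM scaling.

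Among the members lower in crop, Lcp1 had 1 read over the crop libraries and 155 over the PV LpWF libraries and had passed the filter through PV LpWF alone, so that it had to differ (edgeR adjusted p = 0.00475, and 0.00637 under coding TPM scaling with a log2 fold change of -5.14). Mean coding TPM of Lcp1 was 0.0873 in crop and 3.18 in PV LpWF. With TMM-scaled library sizes, the pooled PV LpWF level was 99.2 times the crop level, with a 95% counting interval of 17.6 to 3945. The ratio was 51.2 without PV LpWF replicate 2, which held 95 of the 155 reads, 61.8 without crop replicate 1 and 64.3 without crop replicate 3. Without crop replicate 2, which held the single crop read, it was at least 24.1 with a floor of 3 reads over the crop group. Cpr50Ca had a log2 fold change of -3.25 ± 1.08 (adjusted p = 0.0390), which was lost without crop replicate 1 (adjusted p = 0.125), without PV LpWF replicates 1, 2, 4 or 5 in turn (0.0509 to 0.0705), and under coding TPM scaling (-2.26, adjusted p = 0.0764). Its log2 fold change was -4.72 without crop replicate 2 and -2.65 without crop replicate 3. Cpr66D was lower under TMM, at -1.36 ± 0.27 (adjusted p = 0.00241), but the call ended under coding TPM scaling at -0.39 (adjusted p = 0.253). Cpr50Ca had also reached the filter through PV LpWF, and neither Cpr50Ca nor Cpr66D kept its call under coding TPM scaling.

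**Figure D4:**
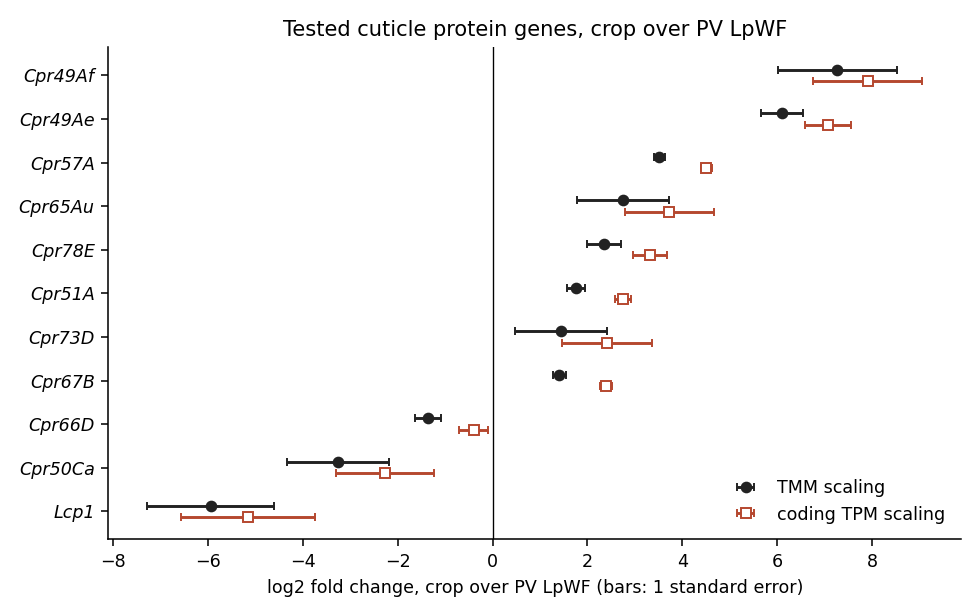
Log2 fold change of the 11 tested members, crop over PV LpWF, with 1 standard error, under TMM scaling (filled) and under scaling by coding TPM totals (open). Cpr49Ae, Cpr57A, Cpr78E, Cpr51A and Cpr67B lie to the right of 0 under both, while Cpr66D moves from -1.36 to -0.39; the fitted values of Cpr49Af and Lcp1 depend on groups with 0 or 1 read.

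Markers of other cell types moved with this contrast, counted here under TMM, where 26.1% of all tested genes rose and 25.5% fell. All 9 muscle markers rose in crop, with a summed level of 17298 to 19870 coding TPM in crop against 1200 to 1532 in PV LpWF. Of 8 markers of the endodermal PV4-6 cells, 7 fell and 1 rose, and their sum was 1078 to 5358 in crop against 16626 to 29388 in PV LpWF. Of 9 markers of the esophagus and PV1-3, the cuticle-secreting ectoderm of the PV, 4 rose and 2 fell, and the sum was 9746 to 11454 in crop against 3093 to 4091 in PV LpWF. Of 7 tracheal markers 5 rose, with sums of 295 to 358 coding TPM in crop and 14.9 to 19.7 in PV LpWF, and 3 of them (Gasp, serp and verm) also belong to the cuticle gene lists. Of 4 hemocyte markers 2 rose, 5 of 9 digestive midgut markers, 1 of 4 fat body markers and 1 of 3 salivary gland markers fell. bond, which the study used to mark esophagus and crop duct, averaged 2530 coding TPM in crop and 201 in PV LpWF (log2 fold change 2.66 ± 0.18, adjusted p = 2.08e-06). Relative to the ectodermal marker sum, Cpr67B stood at 24.4% to 26.7% in crop and 10.2% to 17.6% in PV LpWF. That sum was led by vir-1 in crop (4295 on average) and by takeout (to) in PV LpWF (2199). The share therefore depended on the markers summed. By log2 fold change under TMM, bond (2.66), Jhbp12 (2.45) and vir-1 (1.82) rose more than Cpr67B (1.41). The other ectodermal markers rose less or fell. The part of tissue composition, crop duct included, in the differences between members was not tested.

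PV LpWF against PV axenic asked whether colonization with LpWF went with a change of the cuticle gene pool. No member was called among the 8 that passed the filter, against 0.0107% of 9360 genes called in either direction by edgeR (1 gene, lower in PV LpWF). At an unadjusted p under 0.05 there was 1 member, beside 9.70% of all genes, and DESeq2 called that same member. It was Cpr67B, which averaged 507 ± 74.8 coding TPM in PV LpWF and 707 ± 135 in PV axenic (SD, n = 5 each). The log2 fold change was -0.59 ± 0.13 (edgeR quasi-likelihood adjusted p = 0.292), and the gene ranked 22 of 9360 by p. The groups overlapped, since PV LpWF replicate 3 at 601 exceeded PV axenic replicate 1 at 574. At every replicate number Cpr67B was lower in PV LpWF than in PV axenic. The labels do not pair the libraries. An edgeR fit with a term for replicate number called 1 member lower, again Cpr67B, beside 28 of 9360 genes. DESeq2 with such a term also called Cpr67B lower, beside 166 of 6531 genes. A term for ribosomal RNA over 25% called 0 members lower.

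DESeq2 gave Cpr67B an almost identical change of -0.59 with an adjusted p of 0.00912, where 0.38% of 9483 genes were called lower. Within PV replicates 1 to 3 the edgeR estimate was -0.68 (adjusted p = 0.310), and within replicates 4 and 5, which held more ribosomal RNA, -0.44 (adjusted p = 0.892). The summed ectodermal markers were also lower, at 3093 to 4091 coding TPM in PV LpWF against 4292 to 5171 in PV axenic, with 0 of 9 called by edgeR and 4 at an unadjusted p under 0.05. The largest part of the sum was takeout (to), which averaged 2199 in PV LpWF and 2940 in PV axenic. In the same order Jhbp14 averaged 265 and 354, bond 201 and 233, vir-1 626 and 647, and Jhbp12, which went the other way, 59.8 and 55.3. As a share of that sum Cpr67B was 13.9% ± 2.70 in PV LpWF and 15.2% ± 2.03 in PV axenic (SD, n = 5 each), with overlapping ranges. The part of ectodermal cell content in the Cpr67B difference was not tested.

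The other 7 tested members had standard errors of 0.21 to 0.86 in this comparison. Cpr51A was at -0.22 ± 0.21 (edgeR adjusted p = 0.782), Cpr57A at 0.16 ± 0.22 (adjusted p = 0.852) and Cpr66D at 0.22 ± 0.24 (adjusted p = 0.809). Cpr49Ae was at -0.71 ± 0.45 (adjusted p = 0.632) and Lcp1 at 1.60 ± 0.86 (adjusted p = 0.553), both with wide spreads between libraries. Cpr78E was at -0.33 ± 0.37 and Cpr50Ca at -0.12 ± 0.49 (adjusted p = 0.820 and 0.963).

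**Figure D5:**
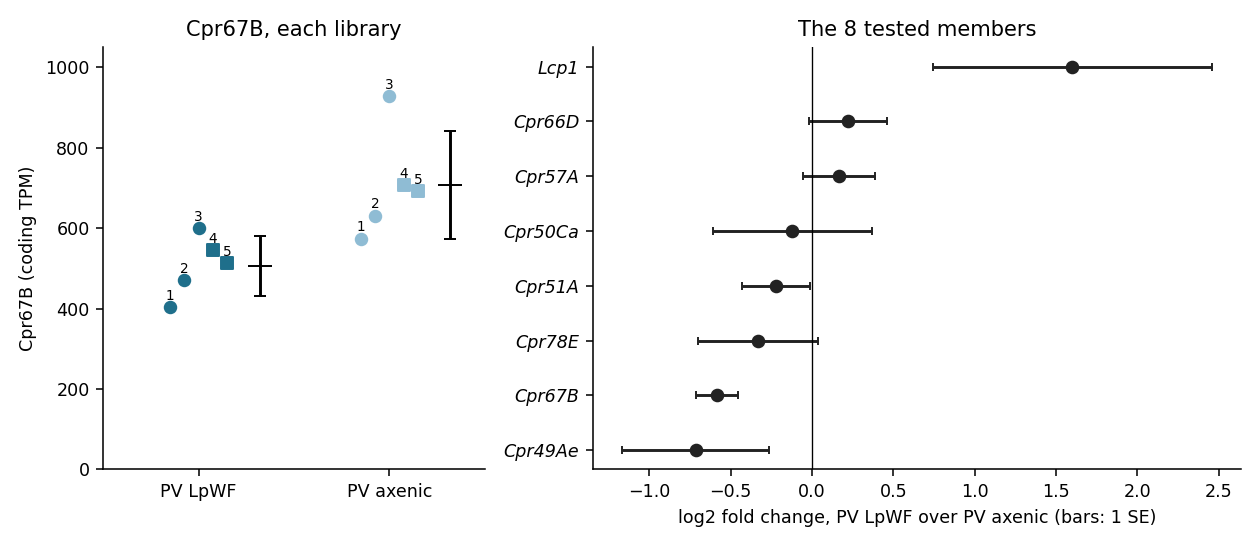
Left, Cpr67B coding TPM in each PV LpWF and PV axenic library, numbered by replicate (squares, the libraries with more ribosomal RNA; bars, mean and SD, n = 5 each); right, log2 fold change of the 8 tested members, PV LpWF over PV axenic, with 1 standard error. PV LpWF averages 507 and PV axenic 707, and in the fit without a replicate term no member passes an edgeR adjusted p of 0.05.

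Genes that act with the cuticle proteins did not move in 1 direction between crop and PV LpWF. Under TMM 26.1% of all tested genes rose and 25.5% fell, shares to be set beside each of the 3 lists. Of 23 other cuticle protein genes, 9 were tested, 6 rose and 2 fell, with a median log2 fold change of 1.10. Gasp, a chitin-binding protein of tracheal and other cuticles, rose by 3.47 ± 0.14 (edgeR adjusted p = 1.37e-07), averaging 178 ± 30.6 coding TPM in crop and 8.33 ± 1.07 in PV LpWF. dumpy (dpy), a giant apical matrix protein that anchors epidermis to cuticle, rose by 3.33 ± 0.25, averaging 45.2 ± 4.44 coding TPM in crop and 2.29 ± 0.495 in PV LpWF. Peritrophin-A, a chitin-binding protein, was lower in crop at -3.46 ± 0.61 (edgeR adjusted p = 0.00192). Under coding TPM scaling, where 87.7% of all calls were higher, the split was 7 higher and 1 lower, and obst-B was no longer called (-0.22, against -1.20 under TMM).

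Of 21 matched genes for chitin synthesis and cuticle assembly, 18 were tested, 9 rose and 8 fell, with a median of 0.45. vermiform (verm), a chitin deacetylase, rose by 4.85 ± 0.19 (edgeR adjusted p = 1.02e-07), averaging 14.3 ± 2.32 coding TPM in crop and 0.249 ± 0.0392 in PV LpWF. snsl rose by 2.66 ± 0.47. Lower in crop were the chitin deacetylase gene Cda9 at -4.40 ± 1.40 and the chitinase genes Cht2, Cht5 and Cht7 at -4.35 ± 0.56, -4.15 ± 1.06 and -3.08 ± 0.36. Cht5 averaged 11.3 ± 11.7 coding TPM in crop and 103 ± 23.8 in PV LpWF, so the crop libraries were widely spread. The PV also makes the chitinous peritrophic matrix in its endodermal cells. Under coding TPM scaling the split was 10 higher and 6 lower, beside the same 87.7% over all genes.

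Of 13 matched genes for sclerotization and pigment, 11 were tested, 5 rose and 4 fell, with a median of 0.01. black (b) and ebony (e), which make and use beta-alanine, rose by 4.19 ± 0.30 and 3.61 ± 0.62, and yellow-f and yellow-f2 by 3.19 ± 0.48 and 3.03 ± 0.29. pale (ple, tyrosine hydroxylase) and Ddc (dopa decarboxylase), which make dopamine, were lower in crop at -3.39 ± 0.52 and -2.77 ± 0.20. Under coding TPM scaling 7 were higher and 4 lower, beside that same share. Ddc averaged 32.1 ± 7.15 coding TPM in crop and 111 ± 11.7 in PV LpWF. These genes also act in neurons. Of 5 nervous system markers 1 (elav) was called higher and none lower, with a sum of 13.8 to 19.4 coding TPM in crop and 6.28 to 11.0 in PV LpWF. Of this sum elav alone averaged 12.3 in crop and 4.08 in PV LpWF. Syt1, repo, nSyb and brp had log2 fold changes of -0.80, -0.68, -0.81 and -1.46 without a call. The part of neurons in the ple and Ddc differences was not tested. No gene of the 3 lists was called by edgeR between PV LpWF and PV axenic, where 3 of 8, 3 of 16 and 1 of 11 tested genes had an unadjusted p under 0.05, beside 9.70% of all genes.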

How the data were processed

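The authors quantified single-end reads per transcript with Salmon (version not given in the sources used here) in a Nextflow workflow on BDGP6 with Ensembl release 98. The deposited files give estimated counts and TPM per transcript for 16 libraries, and effective lengths. Both were summed per gene by the Ensembl BDGP6 release 115 annotation; 271 of 33704 transcripts had no gene there. Estimated counts were rounded and tested with edgeR 4.0.16 (R 4.3.3), TMM and filterByExpr at defaults, and genes at an adjusted p under 0.05 were called. DESeq2 1.42.0 was an alternative. The deposited TPM values were rescaled over 13619 protein-coding genes, with no pseudocount. Only the groups compared entered a fit.

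Members and gene lists were chosen with earlier results of these data known. Members named are the 20 with the highest group means, those called, and Cpr67B, Cpr49Ae and Cpr51A, which the study names, with Cpr66D, which is in its supplementary tables, plus others chosen after their values were seen. From each list at most 6 called genes were named. Nothing in the labels says that replicates were separate cultures, so p-values measure the spread between these pooled samples. Scripts were tested on simulated data. Depth and intervals cover counting error only.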

Additional observations from a re-analysis of the deposited data

Results flagged for a closer look

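In groups of 5 samples, a library was picked out when its gap to the nearest other library exceeded 0.71 of the group's range. Among 29 combinations of measure and PV group this marked 5. The rule marks about 1 in 20 by chance only where values are normally distributed. Cpr47Eg, Cpr67Fb and Twdlbeta, among the 5, had 0 reads in some PV LpWF libraries, so no excess over chance can be read from this count. Cpr49Ae stood at 18.9 coding TPM in PV axenic replicate 5, with the other PV axenic libraries between 4.95 and 8.34. Lcp1 stood at 9.07 in PV LpWF replicate 2, with the others between 0.564 and 2.59. Twdlbeta stood at 2.13 in PV LpWF replicate 4, with the others between 0 and 0.122, and Cpr47Eg at 1.16 in PV LpWF replicate 1, with the others between 0 and 0.242. Cpr67Fb stood at 0.689 in PV LpWF replicate 2, with the others between 0 and 0.200. Outside the protein-coding genes, the Tweedle pseudogene TwdlU had 9 reads in crop replicate 2 and at most 4 in any other library.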

How the results depend on the processing

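Between crop and PV LpWF, 7 members were called higher and 3 lower. Library totals, coding TPM scaling and a filter of 10 counts in every library each gave 1 lower, and leaving out 1 library gave 5 to 7 higher and 1 to 3 lower. Lcp1 could be fitted in 5 and Cpr49Af in 4 of the 8 fits without 1 library, being under the filter in the others. DESeq2 gave 8 higher and 4 lower, beside 2479 higher and 2804 lower of all 11488 genes tested. Between PV LpWF and PV axenic 0 were called lower by edgeR without a block. Cpr67B alone was called lower under DESeq2, under the replicate block and under DESeq2 with the block. Over all genes these settings called 36 of 9483, 28 of 9360 and 166 of 6531 lower. Same-numbered libraries did not deviate together throughout, with correlations of -0.14 to 0.02 for crop and PV LpWF and 0.02 to 0.44 for the PV groups, and not every library correlated best with its own number, so the block was kept as an alternative. With the replicate block crop had 6 higher and 2 lower members, beside 2170 higher and 2095 lower of all 9566 genes tested. Leaving out 1 PV library gave 0.

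At a threshold of 10 coding TPM, 5 members counted in crop, 0 in SG, 2 in PV LpWF and 2 in PV axenic. At 2 coding TPM, SG had 2, and 18 members reached 1 in any crop library. Leaving out 1 library gave 9 to 10 in crop, 4 in SG, 8 in PV LpWF and 7 to 8 in PV axenic. Summed levels were 1923 in crop, 243 in PV LpWF and 309 in PV axenic as deposited TPM. They were 4527, 90.5, 991 and 1409 in crop, SG, PV LpWF and PV axenic without the 10 highest genes, 1171, 57.2, 342 and 501 as TMM-normalized CPM, and 1264, 7.13, 64.6 and 65.4 without the highest member. Without 1 library they ranged over 3869 to 3973, 9.53 to 11.3, 548 to 597 and 720 to 805. SG lay above all other libraries for 2 to 3 members.

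In crop, 1 other cuticle gene was lower under library totals, coding TPM scaling, the 10-count filter, the replicate block with either tool and the libraries with less ribosomal RNA (1 to 2 without 1 library). Chitin and assembly genes lower in crop numbered 5 under library totals, the block and less ribosomal RNA (5 to 7 without 1 library, with 8 to 10 higher), and sclerotization genes higher numbered 3 under the 10-count filter. DESeq2 with the block called 1, 2 and 1 genes of these lists lower in PV LpWF than in PV axenic, beside 166 of all 6531 genes tested.

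The sign of Cpr50Ca in PV LpWF against PV axenic, -0.12, turned under library totals (0.0045), in libraries with more ribosomal RNA (0.0065) and in 3 fits without 1 library (-0.36 to 0.16), and that of Cpr78E with less ribosomal RNA (0.031). None of these was called, and the causes were not tested. Of the other alternatives for single members, 194 of those for crop and 169 of those for the PV groups kept direction and call. The alternative that sums near-identical copies was not run, since it needs protein sequences. Members at few reads are limited by counting error in crop, where 1 coding TPM was worth the fewest reads (median 9.65). Library totals, coding TPM scaling, DESeq2 with the block and the levels relative to Cpr67B were chosen after seeing the data.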
